A study of Homo sapiens with 4 samples.

Results

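The genes described here are the long noncoding genes with a LINC symbol that were expressed in Hs578T cells, a mesenchymal line from a human breast carcinoma. A gene was included when its symbol was LINC followed by digits alone and its level was 1 TPM (a level scaled for transcript length and library size) or more in at least 2 of 4 RNA-seq libraries, and 242 of the 2138 LINC genes in the deposited table met this rule. The table held 60664 genes in all. The members were therefore chosen by their levels in the same libraries that are compared below, so counts over the members describe them and carry no test. TFCP2L1, a DNA-binding factor related to grainyhead and CP2, was overexpressed in 2 of the libraries, and the other 2 came from the group labelled empty, which the deposited table names FLAG. All 4 share the Hs578T background, and no other allele or agent, time point, vector or promoter is given in the labels. The labels are silent on separate cultures or clones within a group, so every p-value measures library-to-library spread alone, and that spread may be technical. The labels' protocols and the design text each name another Illumina instrument for all 4 libraries, and any part of the instrument in the differences was not tested.

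In the overexpressing cells the most abundant member of the empty cells, LINC02582, was lower by a factor of 22.5 in CPM, the counts scaled to library size, and LINC02474 was almost without reads. LINC01082, LINC01721, LINC01914 and LINC01968 had 0 to 3 reads per library in empty cells and at least 21 in each overexpressing library. Most of the other abundant members, among them LINC00958, LINC01287 and LINC02088, moved by less than 1.5-fold. Among the protein-coding genes nearest to members, CDH11, VEGFC and NT5E were lower in overexpressing cells and FAM43A was higher. They are examples, and VEGFC and NT5E were picked after their values were seen. The members beside them reached 1 TPM in 1 group alone. Of 114 tested neighbours, 62 differed in the edgeR test at an adjusted p under 0.05, beside 51.7% of tested protein-coding genes.

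Long intergenic noncoding RNAs are transcribed by RNA polymerase II and are usually spliced and polyadenylated, but have no long reading frame under strong constraint. They are known for low and cell-type-restricted levels. Some act in the nucleus on neighbouring genes or chromatin, some bind proteins or microRNAs in the cytoplasm, some mark the activity of an enhancer, and for most LINC symbols no function is known. Several have been studied in breast and other carcinomas as markers or as promoters of growth and invasion. TFCP2L1 is known for its part in naive pluripotency and in the epithelium of the kidney and exocrine glands, and CP2 family proteins bind DNA as paired half-sites spaced by a turn of the helix.

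By gene ID, 241 of the 242 members were found in GENCODE release 29 (GRCh38), which classed 201 of them as lincRNA, 16 as processed transcripts and 10 as antisense RNAs. Among the rest were 7 transcribed unprocessed, 2 transcribed processed and 1 transcribed unitary pseudogene. LINC02693 was an exception, as its ID belongs to the protein-coding gene C17orf51 in that release. LINC01605 is the symbol of more than 1 member, with overlapping gene bodies, and each counts among the falls below. The gene bodies spanned a median of 22203 bp, 222 members had a transcript with more than 1 exon and 19 had single-exon transcripts alone. They were spread over the genome, with 31 on chromosome 1, 21 on chromosome 3 and 16 on chromosome 10. No other gene body overlapped 98 of them, whereas 27 overlapped a protein-coding gene. In 21 members over 50% of the 31-base words of the transcripts also occur in other GENCODE genes, so their reads could have been shared out between genes, and 70 members had under 1% of such words. No label or header gives the strand setting of the counting, so reads of overlapping genes on opposite strands cannot be told apart.

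Promoters of the members that differed most between the groups are shown so that their start regions can be read beside their levels. RefSeq's promoter table (GRCh38.p14), which covers 250 bases before to 50 bases after a gene's start, held 156 of the 242 members. The 4 below, all read 5′ to 3′ along the gene's strand, belong to members with nearly all of their reads in overexpressing cells. LINC01082 lies at chr16:86195931-86196230 on the plus strand, LINC01721 at chr20:24199517-24199816 on the plus strand, LINC01914 at chr2:41933674-41933973 on the minus strand and LINC01968 at chr3:194708171-194708470 on the plus strand.
LINC01082: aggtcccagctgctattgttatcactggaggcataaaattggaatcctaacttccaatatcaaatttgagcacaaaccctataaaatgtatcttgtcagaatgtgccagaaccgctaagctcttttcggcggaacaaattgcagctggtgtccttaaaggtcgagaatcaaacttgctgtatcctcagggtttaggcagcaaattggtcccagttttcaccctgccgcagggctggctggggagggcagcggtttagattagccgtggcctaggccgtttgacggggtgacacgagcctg
LINC01721: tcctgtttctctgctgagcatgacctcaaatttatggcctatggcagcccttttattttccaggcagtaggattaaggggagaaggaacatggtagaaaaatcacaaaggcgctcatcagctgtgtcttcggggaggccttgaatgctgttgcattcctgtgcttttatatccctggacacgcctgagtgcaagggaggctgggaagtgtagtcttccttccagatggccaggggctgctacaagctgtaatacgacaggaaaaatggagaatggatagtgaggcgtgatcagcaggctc
LINC01914: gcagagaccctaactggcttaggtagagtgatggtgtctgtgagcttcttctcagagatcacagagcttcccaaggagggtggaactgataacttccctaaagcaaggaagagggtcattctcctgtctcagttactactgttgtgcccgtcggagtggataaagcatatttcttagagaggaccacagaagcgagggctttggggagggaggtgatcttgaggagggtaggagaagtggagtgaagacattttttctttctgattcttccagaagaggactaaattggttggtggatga
LINC01968: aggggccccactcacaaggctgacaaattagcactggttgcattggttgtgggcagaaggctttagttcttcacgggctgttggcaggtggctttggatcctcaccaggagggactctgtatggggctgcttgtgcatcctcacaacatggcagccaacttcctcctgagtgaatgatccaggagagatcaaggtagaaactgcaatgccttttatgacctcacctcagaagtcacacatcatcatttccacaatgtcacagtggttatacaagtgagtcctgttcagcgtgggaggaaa

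These 4 windows held 48.0% to 50.3% G and C, against a median of 52.8% over member promoters and 58.7% over all promoters of the table, and had 2 to 10 CpG pairs each. Other members with large differences did not divide in this way. LINC01315, which reached 1 TPM in overexpressing cells alone, had 72.7% G and C and 28 CpG pairs. LINC01980, at 1 TPM or more in all 4 libraries, had 40.3% and 6. LINC00200, which reached 1 TPM in empty cells alone, had 61.3% and 23. LINC00842 was also higher in overexpressing cells but had at least 194 reads in every library. Its promoter, at chr10:46398112-46398411 on the plus strand, had 68.3% G and C and 31 CpG pairs.
LINC00842: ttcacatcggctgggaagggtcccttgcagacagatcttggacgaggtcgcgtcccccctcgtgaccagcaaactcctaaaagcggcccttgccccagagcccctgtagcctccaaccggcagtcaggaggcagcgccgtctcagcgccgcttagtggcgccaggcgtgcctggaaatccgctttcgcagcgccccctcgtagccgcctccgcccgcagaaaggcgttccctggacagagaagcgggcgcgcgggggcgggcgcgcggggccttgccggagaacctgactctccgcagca

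The next pair belongs to members with nearly all of their reads in empty cells. LINC02009 lies at chr3:46423618-46423917 on the minus strand, and LINC02126 at chr16:65176524-65176823 on the minus strand. The capitals in LINC02126 mark a pair of CP2 half-sites, CCAG and CCAG with 6 bases between them.
LINC02009: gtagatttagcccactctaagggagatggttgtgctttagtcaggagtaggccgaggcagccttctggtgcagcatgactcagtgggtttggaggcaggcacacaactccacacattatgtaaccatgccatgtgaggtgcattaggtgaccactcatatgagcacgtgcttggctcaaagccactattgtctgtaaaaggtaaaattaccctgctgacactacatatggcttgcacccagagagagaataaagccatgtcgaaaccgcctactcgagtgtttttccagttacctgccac
LINC02126: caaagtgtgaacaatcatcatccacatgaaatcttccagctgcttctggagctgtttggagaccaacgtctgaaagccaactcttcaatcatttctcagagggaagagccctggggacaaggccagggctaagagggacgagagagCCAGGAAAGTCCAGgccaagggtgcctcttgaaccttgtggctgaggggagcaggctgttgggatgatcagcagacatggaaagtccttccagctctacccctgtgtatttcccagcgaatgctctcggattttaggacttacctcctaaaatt

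Such a pair, defined as CCAG or CCGG, then 6 bases of any kind, then CCAG or CCGG, on either strand (CTGG or CCGG on the other), was searched in all windows. It was present in 22 of the 156 members with a promoter in the table, which is 14.1%, and in 14.4% of all 27305 genes. Overlapping matches were counted once per gene. Of members that passed the test as higher, 4 of 31 held it, against 5 of 41 that passed as lower and 13 of 77 that did not pass. These are matches to letters in a window and say nothing about binding. LINC02582 and LINC02474 have no entry in the promoter table.

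The 4 libraries held 23755664 and 26355502 estimated counts in overexpressing cells and 23304022 and 18960674 in empty cells, and TFCP2L1 itself had 4623 and 5069 counts in the overexpressing libraries, against 12 and 19 in the empty libraries. The summed TPM of 8 mesenchymal markers, VIM and FN1 among them, was 8434 to 8748 in overexpressing cells and 8405 to 8813 in empty cells. Of these 8, VIM and CDH2 rose, while CD44, SPARC, CAV1, FN1 and ZEB1 fell, and AXL did not pass. The 8 luminal markers summed to 234 and 241 TPM in overexpressing cells and 375 and 371 TPM in empty cells, nearly all of it KRT18, which fell. Of the other luminal markers GATA3 had 5.05 to 6.95 TPM, and CDH1, EPCAM, ESR1, FOXA1, KRT19 and PGR were at or under 1.03 TPM in every library, with FOXA1 passing as higher. Of 5 leukocyte markers, CD68 had 78.4 to 80.9 TPM in overexpressing cells and 33.3 to 35.2 TPM in empty cells, and the others were at or under 0.20 TPM. The 4 fibroblast markers summed to 74.2 to 81.3 TPM in overexpressing cells and 171 to 186 TPM in empty cells, and the 4 endothelial markers to 3.22 to 3.74 TPM in overexpressing cells and 9.53 to 12.6 TPM in empty cells. Whether these marker levels have a part in any member's difference was not tested. In bulk RNA, fewer cells that express a gene and less RNA per cell cannot be told apart.

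Most members were expressed at low levels. The mean over the 4 libraries was under 2 TPM in 101 members, 2 to 10 TPM in 102, 10 to 30 TPM in 33 and 30 TPM or more in 6, with a median of 2.63 TPM. In reads, 68 members had under 100 counts over all 4 libraries together. The members took 0.171% and 0.162% of all counts in overexpressing cells, against 0.228% and 0.225% in empty cells. Their TPM summed to 1275 and 1195 in overexpressing cells, against 1571 and 1574 in empty cells. With LINC02582 left out the sums were 1270 (exactly 1269.6) and 1189 TPM in overexpressing cells, against 1442 and 1458.5 TPM in empty cells, so both overexpressing libraries remained under both empty libraries. The number of LINC genes at 1 TPM or more was 210 and 204 in overexpressing cells, against 221 and 229 in empty cells.

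**Figure D1:**
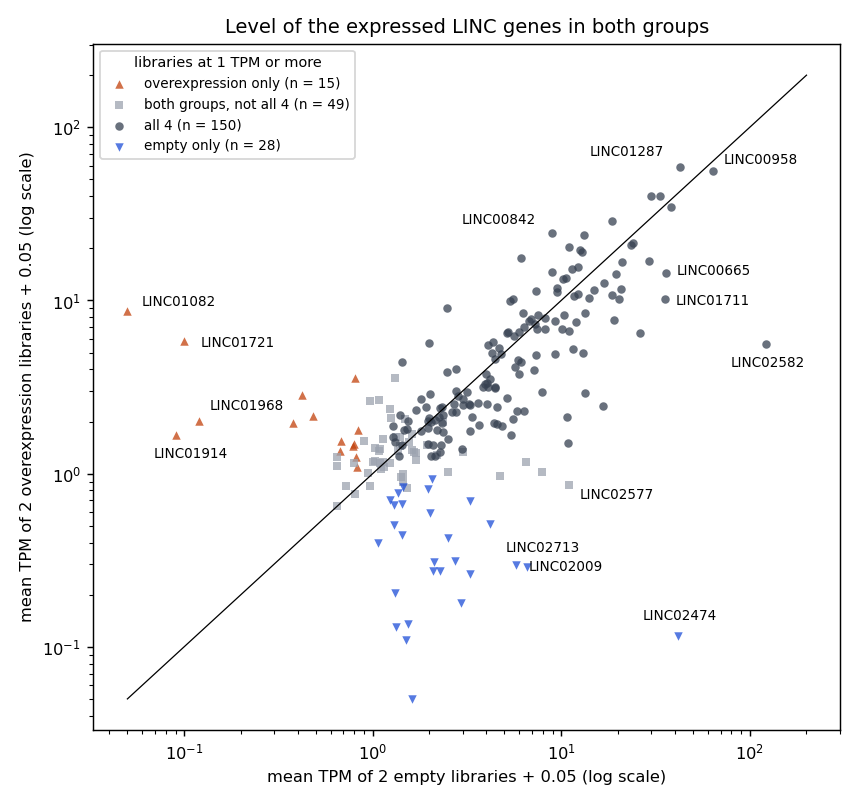
Mean TPM of each of the 242 members in overexpressing cells against the mean in empty cells, both with 0.05 added and on log axes, with 1 point per member. Colour and shape give the libraries in which it reached 1 TPM, and the line marks equal means. Most points lie near the line at under 10 TPM, while LINC02582 and LINC02474 lie far below it and LINC01082 and LINC01721 far above it.

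Just inside the threshold were LINC00852, LINC02616 and LINC01764, each with a second highest level of 1.01 TPM, and just outside were LINC02315 at 0.99 TPM, LINC00343 at 0.94 TPM and LINC00652 at 0.91 TPM. A further 44 LINC genes reached 1 TPM in a single library, and 1117 of the 1896 LINC genes outside the rule had no count at all.

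LINC02582 on chromosome 18 (GRCh38, 73324941 to 73349878), reported to promote radioresistance of breast cancer cells, had 5.20 and 5.92 TPM in overexpressing cells, against 128.95 and 115.91 TPM in empty cells. The groups were far apart and each group's libraries lay close together. Its log2 fold change was -4.48 (SE 0.08, edgeR quasi-likelihood test, Benjamini-Hochberg adjusted p = 9.03e-14). LINC00665, which hosts a micropeptide studied in triple-negative breast cancer, had 14.72 and 13.88 TPM in overexpressing cells, against 37.39 and 34.33 TPM in empty cells, and fell by 1.39 on the log2 scale (SE 0.09, edgeR adjusted p = 1.53e-08).

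The other abundant members moved little or upward. LINC00958, also called BLACAT2 and best known from bladder cancer, had 60.25 and 50.84 TPM in overexpressing cells, against 66.00 and 61.18 TPM in empty cells, a log2 fold change of -0.11 that did not pass (edgeR adjusted p = 0.214). Without overexpression replicate 1 its adjusted p was 0.0231. LINC01287 had 61.62 and 55.95 TPM in overexpressing cells, against 43.30 and 41.96 TPM in empty cells, and rose by 0.48 on the log2 scale (SE 0.08, edgeR adjusted p = 0.000165). LINC01029 rose by 0.42 (SE 0.07, edgeR adjusted p = 0.000288), with 41.49 and 38.39 TPM in overexpressing cells and 29.38 and 30.42 TPM in empty cells. LINC01638, reported to keep mesenchymal traits in triple-negative breast cancer cells, rose by 0.78 (SE 0.09, edgeR adjusted p = 4.14e-06), with 29.79 and 27.56 TPM in overexpressing cells and 17.43 and 19.61 TPM in empty cells. In all 3 of these members both overexpressing libraries were above both empty libraries.

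LINC02088 had 41.02 and 39.60 TPM in overexpressing cells, against 32.83 and 34.05 TPM in empty cells, and did not pass (log2 fold change 0.18, edgeR adjusted p = 0.0973). Of its 31-base words 65.1% occur in other genes. LINC02882 had 37.98 and 31.52 TPM in overexpressing cells and 35.45 and 40.92 TPM in empty cells, so the groups overlapped (edgeR adjusted p = 0.421). The 8 members named here as the most abundant held 22.1% to 24.9% of all member TPM in each library. In order of mean TPM they ran LINC02582, LINC00958, LINC01287, LINC02088, LINC02882, LINC01029, LINC00665, LINC01638. That order pools groups that differ, and in overexpressing cells LINC02582 was below the 7 others. Over the 4 libraries, the ranges of neighbours in that order overlapped for every pair except LINC01287 and LINC02088.

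**Figure D2:**
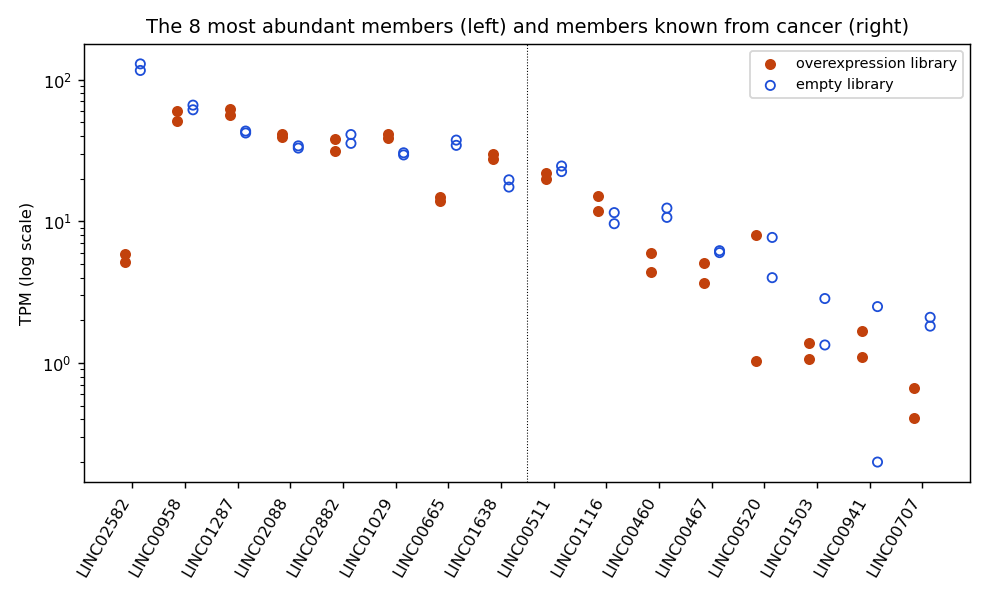
TPM per library of the most abundant members and of the members with a reported role in cancer, with 1 point per library, overexpressing cells left of empty cells, on a log axis. LINC02582, LINC00665 and LINC00460 lie lower in overexpressing cells, LINC01287, LINC01029 and LINC01638 lie higher, and LINC00520 and LINC00941 scatter within a group.

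Over the whole table, 7856 of 16544 tested genes passed at an adjusted p under 0.05, which is 47.5%, with 23.5% higher and 23.9% lower in overexpressing cells, and the share was 51.7% among protein-coding genes. Of the members, 225 had enough reads to be tested and 17, with 7 to 46 counts in total, did not. Among the 150 members that reached 1 TPM in all 4 libraries, 22 rose, 38 fell, 89 did not pass and 1 was not tested. That is 14.8% higher and 25.5% lower of those tested. Among the 49 that reached 1 TPM in libraries of both groups but not in all 4, 2 rose, 6 fell, 31 did not pass and 10 were not tested. The rule itself favours a difference in the remaining members. Of 15 that reached 1 TPM in overexpressing libraries alone, 10 were higher, and of 28 that did so in empty libraries alone, 19 were lower, with none the other way. Over all tested members the counts were 34 higher (15.1%) and 63 lower (28%), and the median log2 fold change was -0.14, beside -0.002 over all tested genes. A fold change of at least 2 was reached by 16 of the 34 and by 44 of the 63. Over the whole table it was reached by 788 of the 3894 genes that passed as higher and 1511 of the 3962 that passed as lower. The 34 and the 63 include the 10 and the 19 whose direction the rule favoured.

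Among members present in both groups, the rises ran from 0.39 to 1.82 on the log2 scale. LINC00842 on chromosome 10, whose G and C rich promoter is printed above, rose by 1.82 (SE 0.12, edgeR adjusted p = 5.88e-08), with 25.92 and 23.02 TPM in overexpressing cells and 9.37 and 8.32 TPM in empty cells. LINC01980 had 8.46 and 9.52 TPM in overexpressing cells, against 3.32 and 1.54 TPM in empty cells (log2 fold change 1.79, SE 0.42, edgeR adjusted p = 0.00282). LINC02152, a single-exon gene on chromosome 16, had 5.95 and 5.24 TPM in overexpressing cells, against 1.73 and 2.14 TPM in empty cells (log2 fold change 1.65, SE 0.21, edgeR adjusted p = 2.00e-05). The groups did not overlap in any of the 3. LINC01967, which overlaps LINC01980 on the opposite strand, also passed, with 4.75 and 3.95 TPM in overexpressing cells and 1.43 and 1.34 TPM in empty cells. Without a strand setting the reads of this pair cannot be told apart.

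Of the 22 members that rose with 1 TPM in all 4 libraries, 19 also had both overexpressing libraries above both empty libraries in TPM. The exceptions were LINC00857, LINC00882 and LINC01085, where TPM overlapped although the test, which uses counts, was passed. All 22 had already passed on the same libraries, so separate TPM groups add no support. No share over all genes is set beside this count. Among all members, 19 had group means in opposite order in TPM and in CPM, since TPM also depends on the transcript lengths the authors' estimate assigned.

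The falls among members present in both groups ran from 0.31 to 4.48 in size on the log2 scale. All 38 with 1 TPM in every library had TPM groups that did not overlap. These 38 had already passed on the same libraries, so the separation adds no support, and no share over all genes is set beside it. After LINC02582 in size of fall came LINC02577 on chromosome 7, with 1.16 and 0.47 TPM in overexpressing cells and 10.47 and 11.48 TPM in empty cells (log2 fold change -3.34, SE 0.34, edgeR adjusted p = 2.02e-06). LINC02577 did not reach 1 TPM in every library, and its empty libraries alone met the rule. Several moderately abundant members, named after their values were seen, fell too. LINC01711 had 10.46 and 9.80 TPM in overexpressing cells, against 37.50 and 33.13 TPM in empty cells (log2 fold change -1.91, SE 0.08, edgeR adjusted p = 2.80e-10). LINC02154 had 1.73 and 1.17 TPM in overexpressing cells, against 11.53 and 10.20 TPM in empty cells (log2 fold change -3.0, SE 0.23, edgeR adjusted p = 8.23e-08). LINC00942, reported to recruit the RNA methyltransferase METTL14 in breast cancer, fell less, with 13.95 and 14.52 TPM in overexpressing cells and 18.75 and 20.19 TPM in empty cells (log2 fold change -0.46, SE 0.08, edgeR adjusted p = 0.000346). The libraries within a group lay close together for LINC01711 and LINC00942, while the overexpressing libraries of LINC02577 were further apart, and without overexpression replicate 1 its log2 fold change was -4.23.

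LINC01082 had 7.18 and 10.04 TPM in overexpressing cells, from 33.12 and 50.34 estimated counts, and no count in either empty library. Against a floor of 3 counts over the empty group, it was at least 23.3-fold higher in CPM. LINC01721, on chromosome 20, had 242 and 261 counts in overexpressing cells, against 2 and 1 in empty cells, or 5.98 and 5.53 TPM against 0.06 and 0.04 TPM. The ratio of its CPM was 141 (exact 95% interval 48.1 to 688). All intervals of this kind cover counting error only. LINC01914 had 21 and 24 counts in overexpressing cells, against 1 and 0 in empty cells, a ratio of 38.0 (6.47 to 1532). LINC01968 had 36 and 28 counts in overexpressing cells, against 1 and 3 in empty cells, a ratio of 13.5 (5.02 to 51.0). These 4 members were near the detection limit in empty cells, so the size of the difference is known only within wide limits.

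LINC02641, LINC00856 and LINC01315 reached 1 TPM in overexpressing cells alone but had reads in all libraries. LINC01315 had 3.41 and 3.65 TPM in overexpressing cells, against 0.71 and 0.80 TPM in empty cells. LINC02641 had 2.08 and 2.15 TPM in overexpressing cells, against 0.58 and 0.29 TPM in empty cells. LINC00856 had 2.13 and 1.69 TPM in overexpressing cells, against 0.33 TPM in each empty library. Count ratios of the 3 were 4.0 (2.42 to 6.94) for LINC01315, 4.85 (2.61 to 9.84) for LINC02641 and 4.82 (2.14 to 12.8) for LINC00856.

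On the empty side LINC02474, on chromosome 1 (GRCh38, 221966341 to 221984964), stood out by its level. It had 0.13 and 0 TPM in overexpressing cells, from 2 and 0 counts, against 43.66 and 39.79 TPM in empty cells, from 257.72 and 189 counts. Its CPM was 265-fold lower in overexpressing cells (72.9 to 2195). LINC02009 had 13 and 14 counts in overexpressing cells, against 336 and 174 in empty cells, and was 22.4-fold lower (15.2 to 34.3). LINC02713 had 0.15 and 0.33 TPM in overexpressing cells, against 7.41 and 5.71 TPM in empty cells, and was 23.1-fold lower in counts (10.3 to 64.3). In all 3 the groups were separate by more than 10-fold.

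LINC00330, LINC00862, LINC02126 and LINC00200 had lower levels, at 0.06 to 0.34 TPM in overexpressing cells and 1.09 to 3.57 TPM in empty cells. Their CPM was 24.6-fold lower for LINC00330 (9.26 to 92.4), 16.3-fold lower for LINC00862 (8.33 to 36.6), 15.8-fold lower for LINC02126 (5.03 to 79.9) and 13.8-fold lower for LINC00200 (6.71 to 32.9). LINC02029 had 0.04 and 0.89 TPM in overexpressing cells, against 5.87 and 2.46 TPM in empty cells, and 71.4% of its 31-base words occur in other genes. These levels rest on 1 to 7 counts per overexpressing library.

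**Figure D3:**
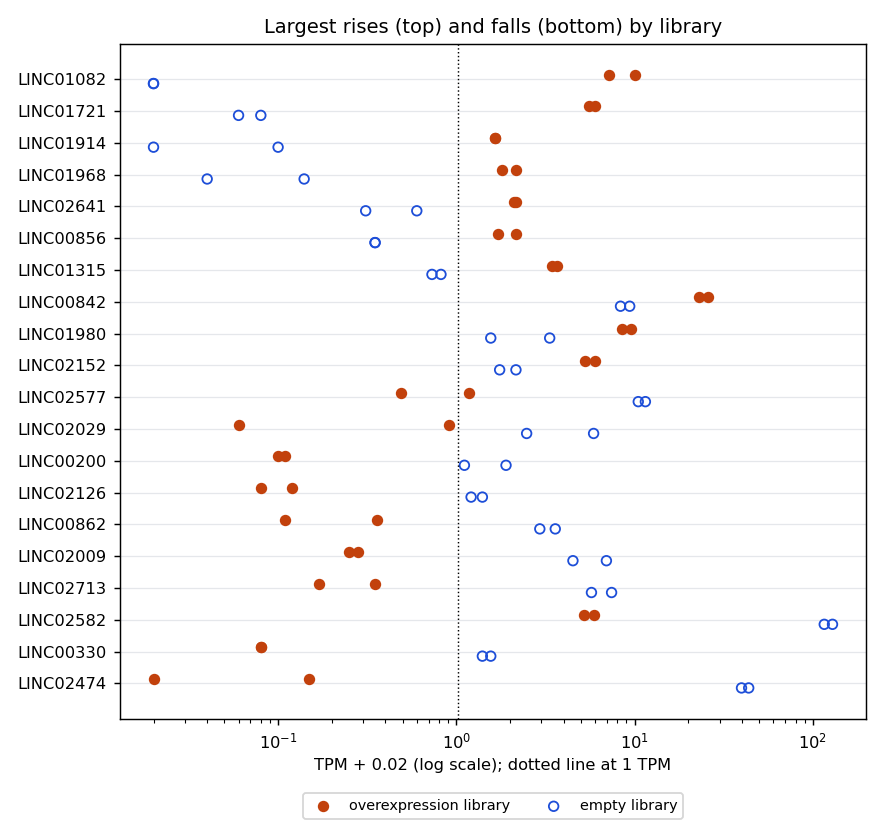
TPM + 0.02 per library, on a log axis, of the members with the largest differences in each direction, with 1 point per library and overexpressing cells (filled) drawn just above empty cells (open). Values of 0 lie at 0.02, and the dotted line marks 1 TPM. Members such as LINC01082 and LINC01721 have both overexpressing libraries far right of the empty ones, and LINC02474 and LINC02582 the reverse.

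Of 15 LINC genes listed for reported roles in cancer, 10 were members, and 5 (LINC00261, LINC00473, LINC00673, LINC01133 and LINC01614) did not meet the rule. LINC00665 and LINC00460 fell, LINC00707 was lower with 1 TPM reached in empty cells alone, LINC01638 rose, and the other 6 did not pass. These counts describe the list and are to be read beside the 47.5% of all tested genes that passed. LINC00460, studied as a promoter of invasion in several carcinomas, had 4.40 and 5.96 TPM in overexpressing cells, against 12.39 and 10.65 TPM in empty cells (log2 fold change -1.14, SE 0.19, edgeR adjusted p = 0.000191). LINC00707, also studied as growth-promoting, had 0.67 and 0.41 TPM in overexpressing cells, against 2.10 and 1.82 TPM in empty cells, a 4.05-fold lower count level (2.87 to 5.83). The difference of LINC00707 is given with no p because the rule used it.

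LINC00511, reported to favour growth and stem-like traits in breast cancer, had 19.98 and 21.77 TPM in overexpressing cells, against 22.42 and 24.54 TPM in empty cells, and did not pass (log2 fold change -0.17, edgeR adjusted p = 0.146). Without overexpression replicate 2 its adjusted p was 0.0411. LINC01116 had 11.80 and 14.99 TPM in overexpressing cells, against 9.61 and 11.51 TPM in empty cells (edgeR adjusted p = 0.0889). LINC00467 had 3.69 and 5.04 TPM in overexpressing cells, against 6.01 and 6.2 TPM in empty cells (log2 fold change -0.50, edgeR adjusted p = 0.105), and passed at 0.0185 without overexpression replicate 2. The TPM of the groups did not overlap in any of the 3, although none passed over all libraries.

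LINC00520, LINC01503 and LINC00941 varied widely between libraries of a group. LINC00520 had 7.96 and 1.03 TPM in overexpressing cells, against 4.0 and 7.69 TPM in empty cells. LINC01503 had 1.38 and 1.06 TPM in overexpressing cells, against 1.34 and 2.85 TPM in empty cells. LINC00941 had 1.11 and 1.68 TPM in overexpressing cells, against 2.50 and 0.20 TPM in empty cells. Their edgeR adjusted p values were 0.693, 0.144 and 0.979 in this order of genes. GENCODE gives the name LINC00941 also to an overlapping gene on the same strand that has no symbol in the deposited table and so is no member. That gene had 10.73 and 7.72 TPM in overexpressing cells, against 14.72 and 20.33 TPM in empty cells, with groups that did not overlap. For the member LINC00941, 98.0% of the 31-base words occur in other GENCODE genes, and leaving out empty replicate 1 gave a log2 fold change of 2.87 (edgeR adjusted p = 0.00302).

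Many LINC genes lie close to a protein-coding gene, and some are known to act on such a neighbour. Within 100 kb of the gene body, 160 members had a nearest protein-coding gene whose ID is in the deposited table, and 25 of these overlapped it. For the other 2 of the 27 members that overlap a coding gene, LINC00339 and LINC00632, that gene's ID is not in the table used here. The neighbours came to 154 genes, of which 114 were tested, 22 passed as higher, 40 passed as lower and 52 did not pass, to be read beside the 51.7% of all protein-coding genes that passed. In 110 pairs both genes were tested, and in 26 both passed. The 26 comprised 18 pairs with both lower, 3 with both higher, 3 with the member lower and the neighbour higher, and 2 with the member higher and the neighbour lower. In 10 of the 26 the member had reached 1 TPM in 1 group alone, so the rule favoured its direction. In the other 16 pairs, 10 had both lower, 2 had both higher, 3 had the member lower and the neighbour higher, and 1 the reverse. Members and neighbours each had more falls than rises, and no share of equal directions was set against these counts.

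LINC01968, almost without reads in empty cells, lies 19384 bp from FAM43A, which had 19.17 and 18.15 TPM in overexpressing cells, against 2.07 and 1.59 TPM in empty cells (log2 fold change 3.34, SE 0.12, edgeR adjusted p = 4.48e-11). ANXA8L1, an annexin gene 6578 bp from LINC00842, had 25.35 and 26.22 TPM in overexpressing cells, against 8.52 and 8.02 TPM in empty cells (log2 fold change 1.06, SE 0.10, edgeR adjusted p = 5.77e-07). In counts, which the test uses, ANXA8L1 rose 2.08-fold, less than in TPM. Its near-identical copy ANXA8 also passed as higher (log2 fold change 1.44, SE 0.08, edgeR adjusted p = 4.23e-09), and reads could have been split between the copies. LINC01968 overlaps the processed pseudogene AC090505.1, and LINC00842 overlaps HNRNPA1P33, each on the same strand. Whether reads were shared out with these pseudogenes was not tested. At both places the noncoding gene and its coding neighbour were higher together. LINC01968 reached 1 TPM in overexpressing cells alone, so the rule favoured its direction, while LINC00842 reached it in all 4 libraries.

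CDH11, the mesenchymal cadherin-11, starts a group of places where both were lower. It lies 15644 bp from LINC02126 and had 27.14 and 20.28 TPM in overexpressing cells, against 56.38 and 52.68 TPM in empty cells (log2 fold change -1.29, SE 0.07, edgeR adjusted p = 1.23e-09). CCRL2, an atypical chemokine receptor gene 3527 bp from LINC02009 on the opposite strand, had 0.55 and 0.52 TPM in overexpressing cells, against 2.75 and 2.66 TPM in empty cells (log2 fold change -2.08, SE 0.33, edgeR adjusted p = 0.000136). ZNF281, a zinc-finger factor gene 4235 bp from LINC00862, fell by 0.56 on the log2 scale (SE 0.10, edgeR adjusted p = 0.000427). The 3 noncoding genes beside them were at 0.34 TPM or lower in overexpressing cells. They reached 1 TPM in empty cells alone, so the rule favoured their direction.

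Further places were picked after their values were seen. VEGFC, the lymphangiogenic growth factor, lies 82975 bp from LINC02509 and had 22.93 and 23.04 TPM in overexpressing cells, against 81.65 and 69.22 TPM in empty cells, while LINC02509 had 0.51 and 0.78 TPM in overexpressing cells and 3.52 and 2.94 TPM in empty cells. NT5E, which encodes the ectonucleotidase CD73, lies 59398 bp from LINC02535 and had 32.27 and 33.37 TPM in overexpressing cells, against 97.31 and 94.75 TPM in empty cells, while LINC02535 had 0.61 and 0.92 TPM in overexpressing cells and 1.78 and 2.07 TPM in empty cells. DACT1, a regulator of Wnt signalling that overlaps LINC01500 on the same strand, had 7.72 and 7.66 TPM in overexpressing cells, against 22.59 and 19.26 TPM in empty cells, while LINC01500 fell by 2.88 on the log2 scale (SE 0.27, edgeR adjusted p = 7.20e-07). Whether reads were shared out between these overlapping genes was not tested. The 3 coding genes fell by 1.71 (VEGFC), 1.5 (NT5E) and 1.53 (DACT1) on the log2 scale, and each passed the edgeR test. LINC02509 and LINC02535 reached 1 TPM in empty cells alone, so the rule favoured their direction. LINC01500 reached it in libraries of both groups, though not in all 4.

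Opposite directions were also seen, as at SAMD11 and STX16. SAMD11 lies 64482 bp from LINC01128 and had 4.25 and 4.15 TPM in overexpressing cells, against 1.65 and 1.56 TPM in empty cells (log2 fold change 1.79, SE 0.21, edgeR adjusted p = 7.74e-06), while LINC01128 fell by 0.32. STX16, which encodes a syntaxin of the Golgi and endosomes, lies 15515 bp from LINC01711 on the same strand and rose by 0.43 on the log2 scale (SE 0.07, edgeR adjusted p = 0.000128), while LINC01711 fell. In other pairs of a named member and its neighbour a single gene passed, neither passed, or the neighbour was not tested. The hippo pathway factor gene TEAD1, 17359 bp from LINC00958, and ZFP14, 2735 bp from LINC00665, did not pass (edgeR adjusted p = 0.607 and 0.781), although LINC00665 fell. SLC39A11 near LINC00511 fell by 0.54 (edgeR adjusted p = 0.00624) and TRAF5 near LINC00467 rose by 0.87 (edgeR adjusted p = 9.78e-06), although neither noncoding gene passed. CAPRIN2, 216 bp from LINC00941, rose by 0.31 (edgeR adjusted p = 0.00546). KTN1, PIK3CG and LEKR1, near LINC00520, LINC02577 and LINC02029, did not pass, and CDRT15L2, EOMES, NFAM1, C2orf91 and ADARB2, near LINC02088, LINC01980, LINC01315, LINC01914 and LINC00200, had too few reads to be tested.

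**Figure D4:**
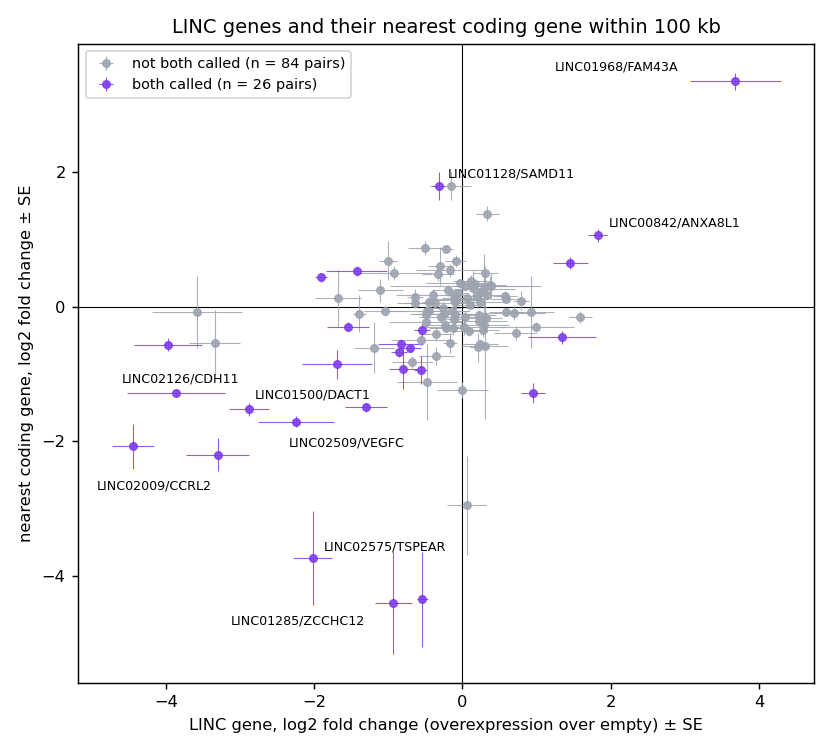
Log2 fold change (overexpression over empty) of each member (horizontal) and of its nearest protein-coding gene within 100 kb (vertical), with 1 point per pair in which both were tested and bars for the standard error. Violet points mark the 26 pairs in which both passed, of which 18 lie in the quadrant where both are lower and 3 where both are higher.

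The region of LINC01082 on chromosome 16 was looked at after its values were seen, because it is known in human lung as a distant enhancer region of FOXF1, a forkhead factor of the lung mesenchyme. LINC01081 lies 21703 bp from LINC01082 and had 15.75 and 13.20 TPM in overexpressing cells, against 9.33 and 8.50 TPM in empty cells (log2 fold change 0.70, SE 0.10, edgeR adjusted p = 7.17e-05). FOXF1 itself had 0.71 and 0.67 TPM in overexpressing cells, against 3.76 and 2.94 TPM in empty cells (log2 fold change -2.26, SE 0.21, edgeR adjusted p = 8.04e-07). Both noncoding genes were higher where FOXF1 was lower, but LINC01082 reached 1 TPM in overexpressing cells alone, so the rule favoured its direction. Any link between these genes was not tested. FENDRR, the noncoding gene beside FOXF1, was at 0 and 0.02 TPM in overexpressing cells and 0.16 and 0.13 TPM in empty cells.

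A list of 42 long noncoding RNAs with names other than LINC and digits was set beside the members. This list was chosen with earlier results of these data known, so counts over it describe the list alone. It held 28 tested genes, of which 10 rose, 11 fell and 7 did not pass, while 47.5% of all tested genes passed. The median log2 fold change was -0.11, beside -0.14 over the tested members. UCA1, first described in bladder carcinoma, had 13.25 and 11.50 TPM in overexpressing cells, against 149.38 and 122.08 TPM in empty cells (log2 fold change -3.47, SE 0.10, edgeR adjusted p = 4.63e-12). MIR100HG and MIR31HG, both microRNA host genes, fell by 1.32 and 1.25 on the log2 scale, and H19, an imprinted RNA, fell by 3.02. H19 was low, with 8 and 13 counts in overexpressing cells and 83 and 62 in empty cells. In TPM it had 0.77 and 0.81 in overexpressing cells, against 2.80 and 3.02 in empty cells. The fall of H19 in counts, which the test uses, was 8.09-fold and larger than in TPM. MALAT1, a nuclear speckle RNA, had 349.65 and 282.90 TPM in overexpressing cells, against 499.98 and 454.44 TPM in empty cells, and fell by 0.66. NRAV, known from antiviral responses, rose by 0.91. Each of these 6 passed the edgeR test, and the most abundant, MALAT1, was above every member in each library.

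**Figure D5:**
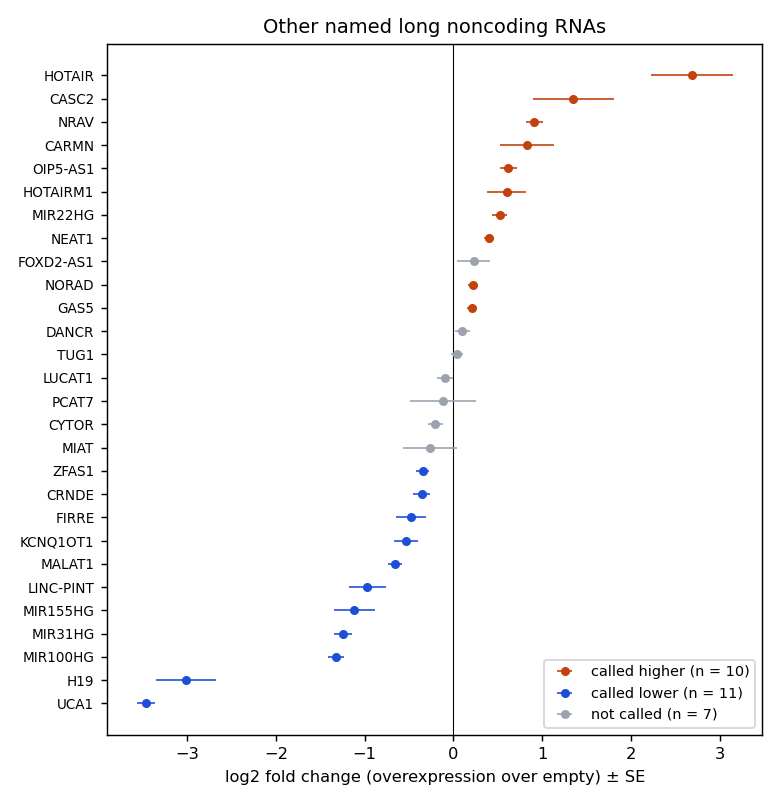
Log2 fold change (overexpression over empty) with its standard error for the tested long noncoding RNAs of the list, ordered by size, with genes that passed the edgeR test coloured. UCA1 and H19 stand at the low end, at -3.47 and -3.02, and HOTAIR at the high end, at 2.69 (3.38 without empty replicate 1). HOTAIR rests on 40 and 45 counts in overexpressing cells, against 8 and 3 in empty cells.

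With 2 libraries against 2, an exact permutation test cannot give a p under 0.33, so single values rest on the edgeR fit across all genes. LINC00857 lost its call without empty replicate 1 (edgeR adjusted p = 0.110) or overexpression replicate 2 (0.0711), and LINC01085 without the same libraries (0.151 and 0.104) or with DESeq2 (0.125).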

How the data were processed

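RNA of Hs578T cells was extracted with Trizol, per the labels' protocols, and 4 libraries were sequenced. Gene-level estimated counts with decimals, and TPM, were deposited for each library, per the file headers. The fold (ratio), log2 fold change and p-value columns that the authors deposited were not used for any call given here. Of the 97 members that passed here, 68 also had an authors' adjusted p under 0.05 in the same direction. Bowtie 0.12.2 and the mouse build mm9 appear in the submitters' processing notes, although the Ensembl IDs of the table are human. These sources state no aligner, counter, strand setting or annotation for the counts.

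After rounding, the estimated counts were fitted in edgeR 4.0.16 under R 4.3.3 (filterByExpr with a minimum count of 10, TMM, glmQLFit with robust = TRUE, glmQLFTest). P-values were Benjamini-Hochberg adjusted over all 16544 genes tested, with a threshold of 0.05. TMM factors were 0.995 to 1.005. The SE was taken as |log2 fold change|/√F. The procedure was tested on simulated data. Members that reached 1 TPM in 1 group alone were given CPM ratios with exact 95% intervals and no p. The floor for a group without counts was 3 counts over the group. Depth per library was 18960674 to 26355502 counts. No value column was left unmapped.

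Named were the 8 members with the highest mean TPM, up to 10 per direction with the largest log2 fold change among those past the threshold with groups apart in TPM, the members at the TPM threshold, a list with reported roles in cancer, the coding neighbour of each, and 6 other long noncoding RNAs by smallest p. Members and lists were chosen with earlier results of these data known. Alternatives were other scalings, count filters, tests, thresholds, member rules and leaving out each library.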

Additional observations from a re-analysis of the deposited data

How the results depend on the processing

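The count of members past the threshold, 97, was 79 (DESeq2) to 100 under other scalings, filters, tests and an adjusted p under 0.01, and 82 to 96 without each library in turn. Requiring also a log2 fold change of at least 1 left 2299 genes (788 higher, 1511 lower), 60 members (16 higher, 44 lower), 17 coding neighbours and 7 other named long noncoding RNAs. Requiring 1 TPM in all 4 libraries left 60 members (22 higher, 38 lower), and keeping those that overlap no other gene left 42 (10 higher, 32 lower). The first rule is a stricter threshold on the same genes, and the other 2 admit fewer members. The sign turned for LINC00520, at -0.25 in the full set, to 0.11 without empty replicate 2 and 0.31 without overexpression replicate 2 (lowest -1.09, without overexpression replicate 1), and for LINC00941, at 0.04, to -0.78 and -0.32 without the same libraries (highest 2.87, without empty replicate 1); the cause was not tested. No paired analysis was possible because the labels number the libraries 1 and 2 in one group and 3 and 4 in the other. Depth limits members near 1 TPM: 68 had under 100 counts in total, and 17 could not be tested.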
